A study of Mus musculus with 2 samples.

Results

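The genes described here were 10 transcripts of natural killer (NK) receptors and of the adaptor proteins that pass on their signals, chosen by name: Klrb1c, Klrb1a, Klrd1, Klrc1, Klrc2, Klrk1, Klre1, Fcer1g, Tyrobp and Hcst. They are 10 of the 32285 genes counted, and all 10 were found in the count matrix. They were followed in invariant natural killer T (iNKT) cells of the mouse thymus, sorted as NK1.1- CD24+ stage 0 cells or as NK1.1+ CD24- CD44+ stage 3 cells after staining with CD1d tetramers and an antibody to TCRβ. The cells came from Ctrl mice and from T-KO mice, in which Kidins220 flox alleles were deleted by a Cre transgene under the proximal Lck promoter. All mice were on the C57BL/6 background. The alleles that Ctrl mice carried and the ages of the mice used for sequencing are not given in the sources used here. This Cre acts from early T cell development on and hardly in γδ T cells. For each genotype, 4 thymi were pooled before the sort, so single animals cannot be told apart. The 8 sorted populations were marked with hashtag antibodies and sequenced as 1 droplet library read from the 5′ end of transcripts.

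Cells were kept when they had at least 1000 genes, at most 5% mitochondrial UMIs (unique molecular identifiers, which count single transcript molecules), and at least 80% of at least 10 hashtag UMIs on 1 of the hashtag rows 11 to 18. This gave 10007 cells of 16179 barcodes. The labels name hashtags 1 to 8 and list stage 0 and stage 3 in turn for the first 6 of them, but no source used here pairs the rows 11 to 18 of the matrix with a population. The rows were therefore left without a stage or genotype, the genotypes could not be set against each other, and no test was made between rows. Values are given for each row, with exact 95% intervals that cover counting error only. The rows held between 577 and 2162 cells. The median depth was 6500 to 8068 UMIs per cell in the odd-numbered rows 11, 13, 15 and 17 and 3258 to 3804 in the even-numbered rows 12, 14, 16 and 18. The iNKT1 marker list (Tbx21, Il2rb, Nkg7 and Klrb1c itself) summed to 2762 to 3085 CPM (UMIs of the genes per 1000000 UMIs) in the even rows and to 145 to 170 CPM in the odd rows. Markers of myeloid and dendritic cells summed to 2161 to 6131 CPM in the odd rows and 252 to 371 CPM in the even rows, and B cell markers to 404 to 944 and 29.8 to 52.1 CPM. Cells with markers of other types were thus part of the odd rows, although all rows are labelled as sorted iNKT cells. No list was absent from a row, but Ncr1 was at 0 in rows 13, 15 and 17.

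NK receptors of the lectin-like family sit in the membrane as dimers and have short cytoplasmic tails. Inhibitory forms carry their own tyrosine motif (ITIM), which recruits phosphatases, whereas activating forms pair with an adaptor. The adaptors Fcer1g (the Fc receptor gamma chain) and Tyrobp (DAP12) carry a tandem tyrosine motif (ITAM) that binds kinases of the Syk family, and Hcst (DAP10) carries a YxxM motif that binds phosphoinositide 3-kinase. Klrb1c encodes NK1.1, the antigen that marks mature iNKT cells in C57BL/6 mice, and Klrb1a encodes a close relative. Klrd1 encodes CD94, the common chain that pairs with inhibitory Nkg2a (Klrc1) or activating Nkg2c (Klrc2) to bind Qa-1. Klrk1 encodes the activating receptor Nkg2d, and Klre1 encodes a chain that pairs with Klri1 or Klri2.

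Of the 10 genes, 7 lie in 1 stretch of 1.07 Mb on chromosome 6 (GRCm38 128609227 to 129678973, GENCODE M21). In order these are Klrb1a, Klrb1c, Klre1, Klrd1, Klrk1, Klrc2 and Klrc1, with 5325 bases between the last pair. Fcer1g lies on chromosome 1 (171229572 to 171234365, minus strand). Tyrobp (30413760 to 30417585, plus strand) and Hcst (30417712 to 30419854, minus strand) face each other on chromosome 7, with their 3′ ends 126 bases apart. Over the aligned coding bases, Klrb1a and Klrb1c were 92.5% identical and Klrc1 and Klrc2 87.2%. Reads of such near copies can be split or dropped by the counting, so the values within each pair are uncertain. The coding stretches below show the signalling letters of the adaptors and of 2 receptors, each read from the first-numbered GENCODE M21 transcript, with the codons of the tyrosines (or, for Klrb1c, of the cysteines of the CxCP motif that binds Lck) in capitals.
Fcer1g, ITAM: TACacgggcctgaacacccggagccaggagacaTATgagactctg
Tyrobp, ITAM: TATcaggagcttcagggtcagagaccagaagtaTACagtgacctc
Hcst, YxxM: TACatcaacatg
Klrc1, ITIM: gtcaccTATgcagaactg
Klrb1c, CxCP: TGTcggTGCcca
The ITAM pattern was found in Fcer1g (codons 65 to 79 of 85) and in Tyrobp (codons 92 to 106 of 113) and in no other of the 10 genes. The ITIM of Klrc1 lay at codons 6 to 11 of 243, and the YxxM of Hcst at codons 72 to 75 of 78. The CxCP stretch of Klrb1a (codons 37 to 40) has the same letters as that of Klrb1c. The shorter patterns also matched elsewhere in Klrb1c, Klrk1, Fcer1g and Tyrobp, which are matches of letters only.

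The receptor transcripts separated the even from the odd rows. Klrb1c reached 382, 430, 328 and 444 CPM in rows 12, 14, 16 and 18, and 6.57, 5.34, 4.78 and 4.81 CPM in rows 11, 13, 15 and 17. The lowest even row was 50.01-fold above the highest odd row. NK1.1 was an antigen of the sort, so this difference is no finding between the rows. Among the even rows the 95% intervals of rows 14 (416 to 446) and 18 (426 to 463) overlapped, whereas row 16 (305 to 353) lay below the other 3.

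The CD94 and Nkg2 chains followed the same split. Klrd1 was at 494, 550, 555 and 658 CPM in rows 12, 14, 16 and 18 and at 31.7, 13.4, 9.90 and 12.04 CPM in rows 11, 13, 15 and 17, and its lowest even row was 15.6-fold above its highest odd row. Klrc1 was at 183, 185, 146 and 188 CPM in the even rows and at 1.48 to 3.59 CPM in the odd rows, a gap of 40.6-fold. Klrc2 was at 135, 150, 165 and 172 CPM against 1.94 to 3.33 CPM, a gap of 40.5-fold. Row 16 was the lowest of the even rows for Klrc1 (131 to 162 CPM) but not for Klrc2 (149 to 183 CPM), the interval of which overlapped those of rows 14 and 18. The order of the 4 even rows by CPM thus differed between the inhibitory and the activating chain. These intervals cover counting error only and leave out the spread between cells.

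Klrk1 and Klre1 gave the same picture. Klrk1 was at 379, 389, 424 and 429 CPM in the even rows and at 10.4 to 24.8 CPM in the odd rows (15.3-fold). Klre1 was at 147, 159, 107 and 145 CPM against 2.04 to 2.19 CPM (48.8-fold). Rows 16 and 18 had overlapping intervals for Klrk1, and row 16 lay apart below the others for Klre1. Of its partner chains, Klri2 had 24.1 to 38.1 CPM in the even rows and 0.114 to 1.95 CPM in the odd rows. The other, Klri1, had between 0 and 1.33 CPM in the 8 rows, with 2 UMIs in all even-row cells.

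Of the adaptors, Hcst was at 549, 576, 379 and 436 CPM in rows 12, 14, 16 and 18 and at 27.5 to 46.7 CPM in the odd rows. Rows 16 and 18 were both below rows 12 and 14. Fcer1g was at 426, 409, 392 and 445 CPM in the even rows and at 252, 99.4, 120 and 69.1 CPM in rows 11, 13, 15 and 17, so the gap between the closest rows was 1.56-fold. Tyrobp ran the other way, with 446, 185, 246 and 116 CPM in rows 11, 13, 15 and 17 and 64.3, 58.4, 106 and 110 CPM in rows 12, 14, 16 and 18. Its lowest odd row was 1.05-fold above its highest even row, and the 95% intervals of rows 17, 16 and 18 overlapped in the plot of levels by row.

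**Figure D1:**
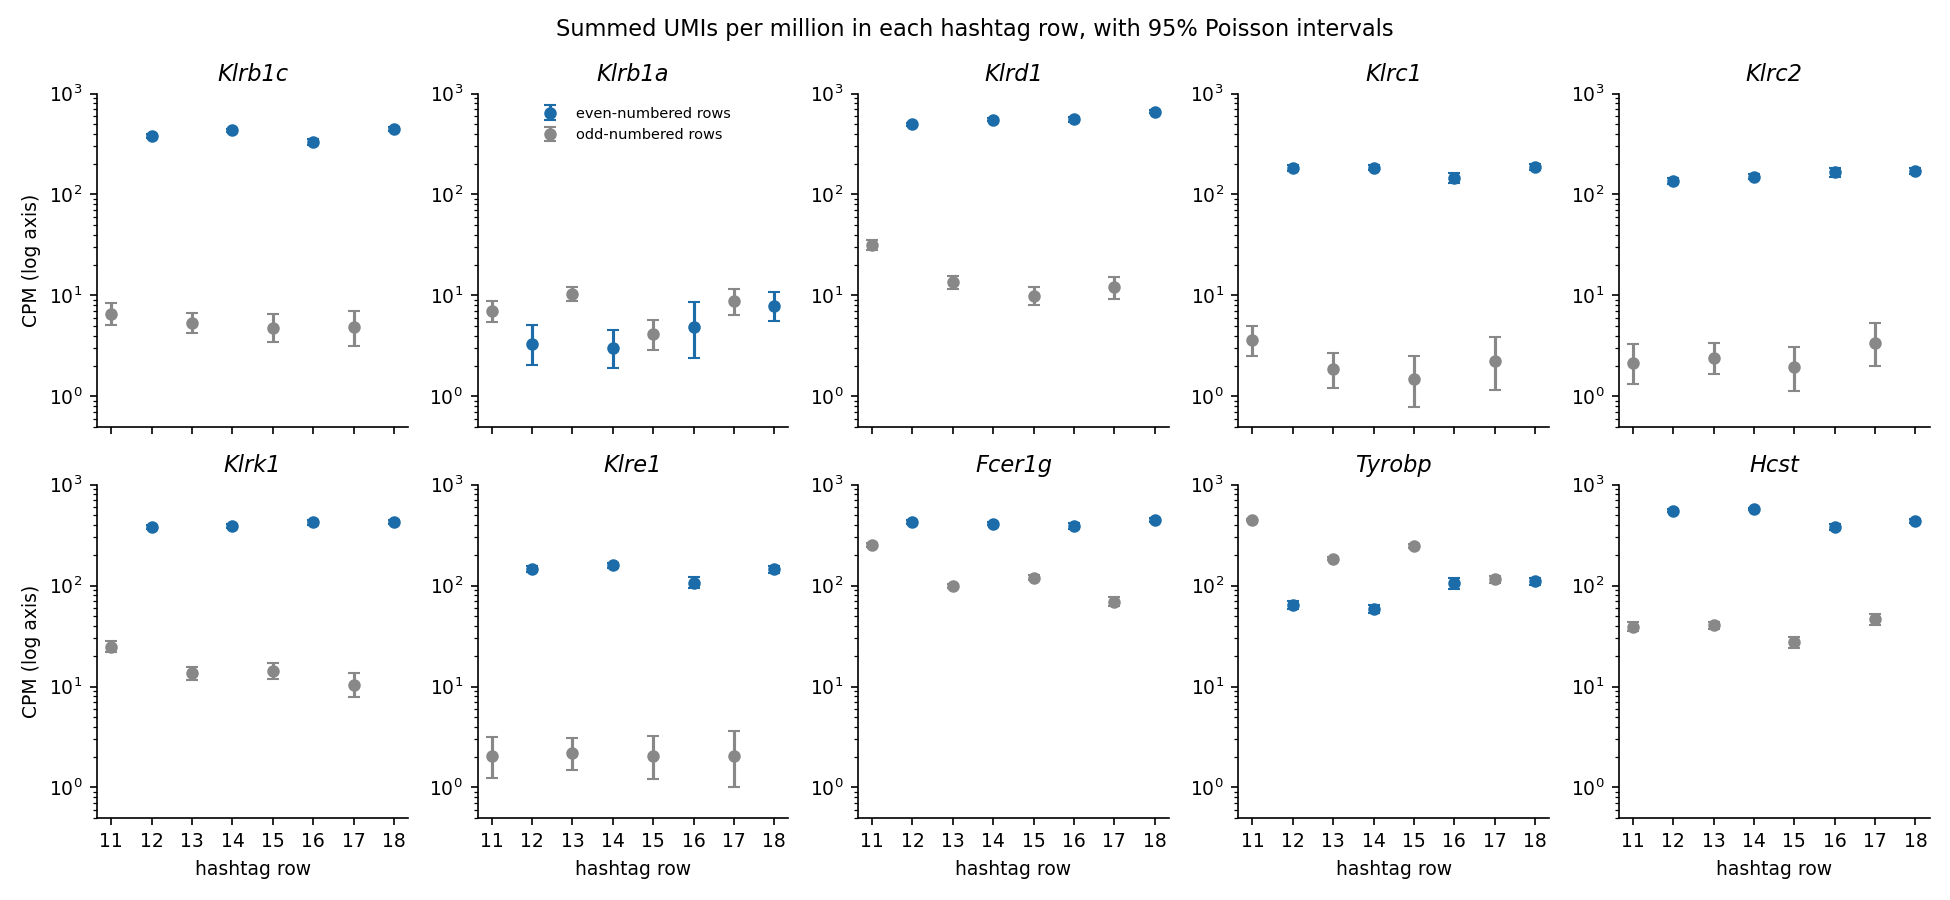
CPM of each of the 10 genes in the hashtag rows 11 to 18, on a log axis, with exact 95% Poisson intervals as bars. The 6 receptor genes other than Klrb1a lie 15.3-fold or more higher in every even row than in any odd row, Fcer1g less so, and Tyrobp is highest in row 11.

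In all, 9 of the 10 genes passed the minimum of 20 CPM as the mean over the rows, and Klrb1a did not. Of the 9, 8 were higher in every even row than in every odd row (Klrb1c, Klrd1, Klrc1, Klrc2, Klrk1, Klre1, Fcer1g and Hcst), and 1, Tyrobp, was higher in every odd row. The receptor genes among the 8 were at 2.10 to 17.1 CPM over the summed odd rows, below the minimum. They passed it through the even rows, so their direction is not independent of the minimum. Over all 6696 genes past this minimum, 28.0% were higher in every even row and 34.3% in every odd row. Cells holding a UMI of Cd79a, Cst3, Lyz2 or Trdc, genes that mark B, myeloid and γδ T cells, were also left out. Cst3 UMIs were in 53.3 to 59.6% of even-row and 75.6 to 82.6% of odd-row cells, so this dropped most cells of each row. All 9 genes were then higher in the even rows, so the direction for Tyrobp turned with this choice of cells. What part the removed cell types had in this was not tested, and the shares of all genes were not counted for the cells left. With at least 90% of hashtag UMIs on 1 row, Tyrobp was in neither count.

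The share of cells with a UMI depends on depth, so cells were also drawn down to 2000 UMIs, which left out 552 even-row and 216 odd-row cells below that depth. Klrb1c was then detected in 47.2 to 55.4% of even-row cells and 1.29 to 1.79% of odd-row cells, against 65.7 to 70.4% and 4.12 to 4.81% before. In odd-row cells with at least 5 Cst3 UMIs, which should lack NK1.1 and had a median of 10487 UMIs, the share was 0.928%, and in odd-row cells of a Cd79a gate for B cells (median 6002.5 UMIs) it was 2.14%. The odd-row shares of Klrb1c lay between these gate values and were not told apart from background. Both gates are parts of the same odd rows. Klrd1 was detected in 57.4 to 63.3% and 2.46 to 5.75%, Klrk1 in 43.6 to 48.7% and 1.79 to 4.82%, and Hcst in 49.3 to 70.3% and 6.45 to 10.4% of even-row and odd-row cells. Klrc1 was detected in 16.3 to 19.1% of even-row cells, Klrc2 in 22.0 to 25.2% and Klre1 in 13.9 to 23.8%, and none of these exceeded 1.48% in an odd row. In the Cd79a gate the shares were 0.883% for Klrc1, 1.64% for Klrc2, 0.631% for Klre1 and 9.21% for Hcst.

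The cells of the odd rows that held each gene were located by exclusive gates on marker UMIs, applied in the order Cd79a, Cst3, Trdc, Rag1 and Ikzf2. The Cst3 gate, for a gene high in dendritic and myeloid cells, took 972 cells, 22.9% of the odd-row cells. It held 90.3% of the Tyrobp UMIs of these rows, at 805 CPM (95% interval 789 to 822), and 74.0% of the Fcer1g UMIs, at 358 CPM. It also held 73.0% of the Klrk1 UMIs (41.2 CPM) and 59.97% of the Klrd1 UMIs (35.8 CPM), but 17.6% of those of Klrb1c (3.36 CPM). Detection at 2000 UMIs in this gate was 8.66% for Klrk1 and 7.01% for Klrd1, against 2.14% and 2.90% in the Cd79a gate. Fcer1g was also at 118 CPM in the Cd79a gate, against 8.72 CPM in the Rag1 gate for immature thymocytes. After removal of the Cd79a and Cst3 gates, Tyrobp was at 70.8, 30.4, 18.5 and 13.1 CPM in rows 11, 13, 15 and 17 and Fcer1g at 57.9, 29.1, 25.4 and 13.4 CPM.

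Klrb1a stood apart from the other receptors. It was at 6.98, 10.3, 4.10 and 8.70 CPM in the odd rows and 3.30, 3.01, 4.82 and 7.84 CPM in the even rows, and the groups of rows overlapped. Within the odd rows 82.4% of its UMIs, 248 of 301, lay in cells of the Ikzf2 gate (Helios), which took 27.4% of the cells. The level there was 32.5 CPM (28.5 to 36.8), with detection in 6.91% of cells drawn to 2000 UMIs, while each other gate had at most 3.59 CPM. In the even rows the Ikzf2 gate had 8.01 CPM of Klrb1a. Klrb1c had 7.59 CPM in the odd-row Ikzf2 gate and 6.86 CPM in the Cd79a gate, so the 2 near copies differed in where their UMIs lay.

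Within the even rows, cells with at least 4 UMIs of Ccl5, a chemokine of effector lymphocytes, were set against cells with at least 2 UMIs of Izumo1r (folate receptor 4) and none of Ccl5. These classes held 1051 and 538 cells, 18.3% and 9.34% of the 5758 even-row cells, with 91 to 409 and 72 to 204 cells per row and median depths of 3533 and 3783.5 UMIs. Both are cut from genes of the same cells, so the comparison is a description without a test. The Ccl5-high class was 21.7, 18.9, 15.8 and 13.5% of rows 12, 14, 16 and 18, and the Izumo1r+ class 5.59, 7.59, 12.5 and 16.1%. Ratios over the summed cells thus weigh the rows differently in the 2 classes, and the ratios of each row do not. The receptor chains were not all different. Klrc1, Klrc2, Klrk1 and Klre1 were at least 1.5-fold higher in the Ccl5-high cells in all 4 rows, 4 of the 9 genes past the minimum, while none was 1.5-fold lower in all 4. Over all 6291 genes past 20 CPM in these rows, 0.668% were higher and 0.334% lower by this rule. The median log2 ratio, with 10 CPM added on both sides, was 0.82 over the 9 genes and -0.03 over all genes. In the 4169 other even-row cells, outside both classes, Klrc1 was at 168 CPM over the summed rows, Klrc2 at 158, Klrk1 at 400 and Klre1 at 136 CPM. For Klrc2 and Klrk1 this was nearer the Ccl5-high level (167 and 471 CPM) than the Izumo1r+ level (91.9 and 263 CPM).

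Klrc1 showed the largest ratio among the receptors. It was at 288, 279, 264 and 336 CPM in the Ccl5-high cells of rows 12, 14, 16 and 18 and at 65.2, 69.2, 41.0 and 59.9 CPM in the Izumo1r+ Ccl5- cells. The sums over the rows were 291 CPM (274 to 308) and 60.2 CPM (50.4 to 71.4), a 4.83-fold difference, and the intervals of the classes did not overlap in any row. Detection at 2000 UMIs was 30.0% (27.2 to 32.9) and 8.59% (6.33 to 11.3). Klrc2, the activating counterpart, was at 148, 181, 161 and 176 CPM against 86.0, 96.3, 82.1 and 95.7 CPM, 1.82-fold over the summed cells, with detection in 26.9% and 14.7% of cells. In the other even-row cells Klrc2 was at 135, 147, 186 and 191 CPM, above the Ccl5-high cells in rows 16 and 18.

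Klre1 was at 214, 213, 195 and 241 CPM in the Ccl5-high cells and at 122, 103, 57.5 and 73.8 CPM in the Izumo1r+ cells, 2.48-fold over the summed cells. Klrk1 was at 441, 457, 527 and 527 CPM against 240, 287, 257 and 258 CPM, 1.79-fold, with detection in 51.2% (48.1 to 54.2) and 31.9% (27.9 to 36.0) of cells. In each of the 4 rows the intervals of the classes were apart for Klrk1 and for Klre1.

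Klrd1, the common partner chain of Klrc1 and Klrc2, was not among these genes. It was at 456, 529, 589 and 663 CPM in the Ccl5-high cells and 500, 556, 427 and 712 CPM in the Izumo1r+ cells, higher in the Ccl5-high cells in row 16 alone. Its log2 ratios were -0.13, -0.07, 0.46 and -0.10 in rows 12, 14, 16 and 18. Klrb1c was lower in the Ccl5-high cells in 4 of 4 rows, at 322, 387, 282 and 459 CPM against 438, 559, 298 and 484 CPM. The class intervals of Klrb1c overlapped in rows 16 and 18, and the ratio over the summed cells was 1.27-fold. Klrb1a had 5.73 and 5.89 CPM in the classes.

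The adaptors were higher in the Ccl5-high cells in 4 of 4 rows but did not reach 1.5-fold in each. Hcst was at 608, 644, 489 and 506 CPM against 542, 547, 372 and 395 CPM, 1.29-fold over the summed cells. Fcer1g was at 558, 510, 648 and 662 CPM against 326, 346, 183 and 310 CPM, with log2 ratios of 0.76, 0.55, 1.77 and 1.07. The study names Fcer1g among the genes that mark its Ccl5 clusters in these same cells, so its direction here is not independent. Tyrobp was at 94.0, 81.9, 266 and 313 CPM against 33.9, 60.8, 13.7 and 19.6 CPM, with log2 ratios of 1.25, 0.38, 3.54 and 3.45. Without row 14, both Fcer1g and Tyrobp passed the rule, which raised the count from 4 to 6 genes. When all cells were drawn to 2000 UMIs, Klrc2 no longer passed the rule, while Fcer1g and Tyrobp did. With a limit of 1 Izumo1r UMI, only Klrc1 and Klre1 passed.

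**Figure D2:**
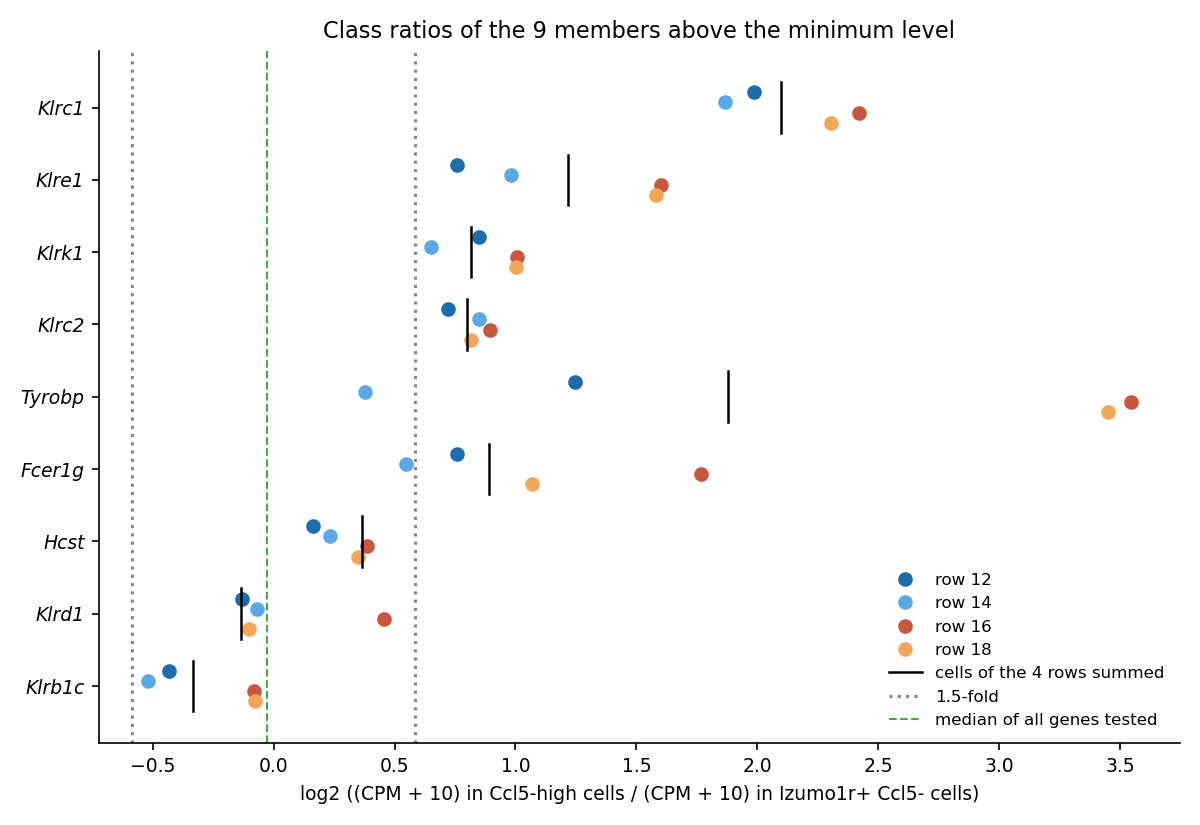
Log2 ratio of Ccl5-high over Izumo1r+ Ccl5- cells for the 9 genes past the minimum, with 10 CPM added on both sides. Points are the rows 12, 14, 16 and 18, black lines the summed cells, dotted lines 1.5-fold, and the dashed line the median of all genes. Klrc1, Klre1, Klrk1 and Klrc2 lie beyond the right dotted line in every row, and Tyrobp spreads from 0.38 to 3.54.

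The summed NK cell markers were highest in the same classes and rows as Tyrobp, but most of the sum was Gzmc. Over the summed Ccl5-high cells Gzmc was at 203, Prf1 at 70.0, Ncr1 at 12.2 and Eomes at 1.25 CPM. The log2 class ratios of Gzmc were -0.40, -0.29, 3.96 and 4.90 in rows 12, 14, 16 and 18. Those of Prf1 were 0.89, 0.69, 1.44 and 1.84, higher in all 4 rows. Ncr1, Eomes, Gzmc and Prf1 summed to 458 and 1039 CPM in the Ccl5-high cells of rows 16 and 18, against 76.7 and 79.3 CPM in those of rows 12 and 14 and 34.6 to 52.4 CPM in the Izumo1r+ cells of the 4 rows. Cells with a UMI of Ncr1, Eomes or Gzmc were 16.5% and 15.8% of the Ccl5-high cells in rows 16 and 18 and held 83.7% and 80.8% of their Tyrobp UMIs and 28.5% and 43.1% of their Fcer1g UMIs. In rows 12 and 14 they were 2.63% and 3.67%. Without all such cells Tyrobp was at 91.4, 82.1, 53.4 and 75.1 CPM in the Ccl5-high cells of rows 12, 14, 16 and 18 and at 28.2, 57.5, 8.98 and 20.6 CPM in the Izumo1r+ cells, still higher in 4 of 4 rows. The genes past 1.5-fold in every row were then again Klrc1, Klrc2, Klrk1 and Klre1. These cells were set apart after the values were seen, and what part NK cells had in the Tyrobp values was not tested. The sort gated TCRβ+ cells that bound the CD1d tetramer, a gate meant to leave NK cells out. The study describes the tetramer stain of this sort as poor, and it removed clusters of B cells, myeloid cells and immature thymocytes.

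Few cells carried most of the Tyrobp transcripts in rows 16 and 18. Cells with 5 or more Tyrobp UMIs, a limit set after the values were seen, numbered 8, 5, 11 and 29 in rows 12, 14, 16 and 18. They held 14.1%, 7.96%, 59.9% and 69.7% of the Tyrobp UMIs of their rows. Of these cells in rows 16 and 18, all 11 and all 29 had an Fcer1g UMI. Ncr1 UMIs were in 72.7% and 51.7% of them, and Cd3e UMIs in 45.5% and 41.4%. Over all cells of an even row, Ncr1 UMIs were in 0.114 to 2.08% and Cd3e UMIs in 92.7 to 96.5%. Lyz2 UMIs were in 9.09% and 20.7% of the Tyrobp-rich cells of rows 16 and 18, against 51.1 to 66.4% of those of the odd rows. In rows 12 and 14, with 8 and 5 such cells, Ncr1 UMIs were in 0% and 20% and Lyz2 UMIs in 25% and 0%. Trdc UMIs were in 12.5%, 20%, 0% and 20.7% of the Tyrobp-rich cells of rows 12, 14, 16 and 18. Over all cells of an even row the Trdc share was 3.10 to 3.63%. Cst3 UMIs were in 60 to 75% of these cells in the 4 even rows and in 98.7 to 100% in the odd rows. Over all cells of a row the Cst3 shares were 53.3 to 59.6% in the even and 75.6 to 82.6% in the odd rows. No name was given to the cells with 5 or more Tyrobp UMIs.

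Across 4 levels of Ccl5 in the summed even rows, Klrc1 went from 139 CPM in the 3566 cells without Ccl5 to 197, 238 and 339 CPM in cells with 1 to 3, 4 to 9 and 10 or more UMIs. The Fcer1g values were 371, 426, 482 and 646 CPM, and those of Klre1 128, 133, 190 and 241 CPM. Fcer1g was higher at each level than at the one before in all 4 rows, and Klrc1 in rows 12, 14 and 18. In row 16 Klrc1 was at 92.3, 228, 275 and 251 CPM and Klre1 at 89.6, 85.9, 211 and 177 CPM, lower at the top level than at the one before, and in row 18 Klre1 was at 131 and 118 CPM at the lowest levels. Klrc2 did not follow the steps, with 150, 145, 185 and 150 CPM. Klrb1c was at 416, 422, 415 and 323 CPM, lowest at the highest Ccl5 level in each of rows 12, 14, 16 and 18. Klrd1 was at 566, 568, 572 and 497 CPM. When cells were drawn to 2000 UMIs before the levels were cut, Klrc1 was detected in 14.7, 22.9, 29.5 and 36.6% of cells and Klrb1c in 53.4, 54.3, 52.4 and 42.5%.

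**Figure D3:**
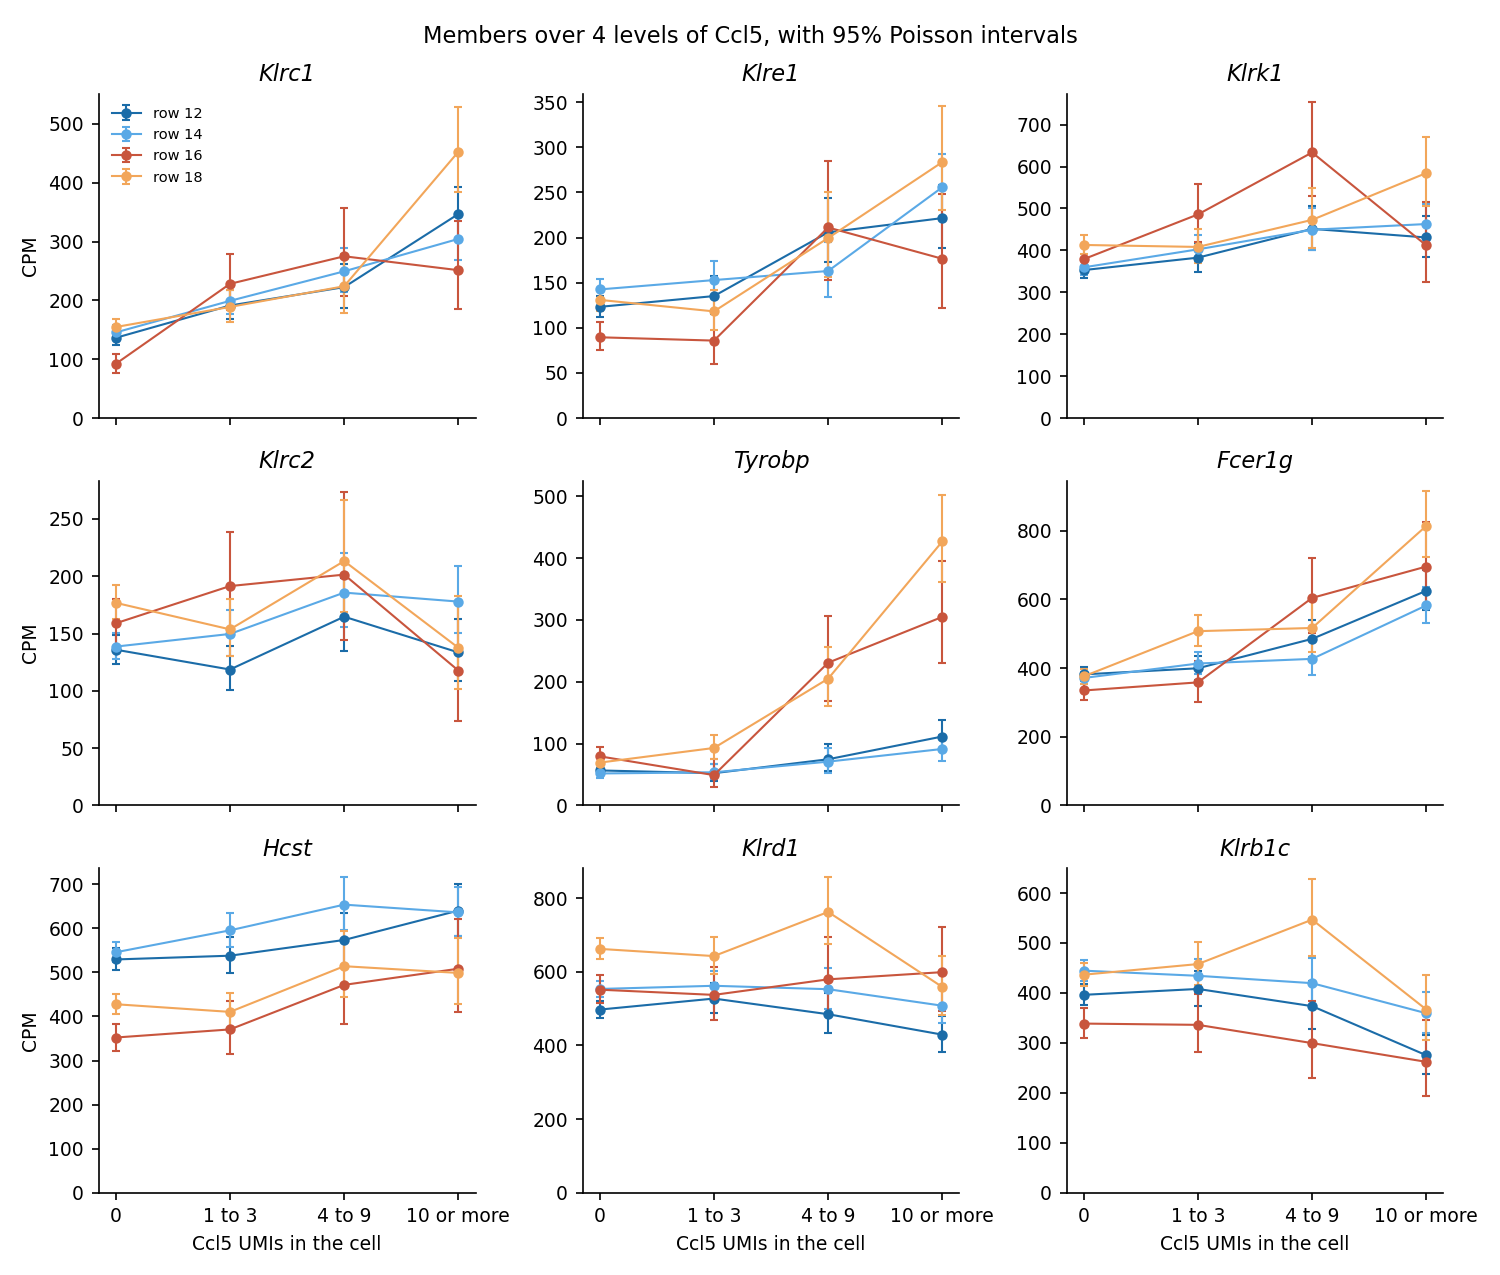
CPM of 9 genes in cells with 0, 1 to 3, 4 to 9 and 10 or more Ccl5 UMIs, for each of the rows 12, 14, 16 and 18, with exact 95% Poisson intervals as bars. Klrc1 and Fcer1g are higher at the top level than without Ccl5 in all 4 rows, Klrb1c is lower, and Tyrobp at the top level is at 305 and 427 CPM in rows 16 and 18 against 111 and 91.4 CPM in rows 12 and 14.

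The genes also differed in how evenly their UMIs were spread over cells. In even-row cells drawn to 2000 UMIs, the variance of Hcst was 1.08 to 1.27 times its mean, near the value of 1 of a Poisson count, and that of Klrb1c 1.16 to 1.504 times. For Klrc1 it was 2.33 to 2.59 times in all 4 rows, and the 10% of cells with the most Klrc1 held 75.2 to 79.7% of its UMIs. Klrc1 was detected in 16.3 to 19.1% of cells, where an even spread of the same UMIs would reach 26.7 to 31.3%. The ratios for Klrc2 were 1.21 to 1.37 and its top 10% of cells held 54.4 to 57.9% of UMIs. Fcer1g had ratios of 1.92 to 2.56. Those of Tyrobp were 1.59 and 1.71 in rows 12 and 14 and 5.12 and 4.88 in rows 16 and 18, the rows where a few cells held most of its UMIs.

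**Figure D4:**
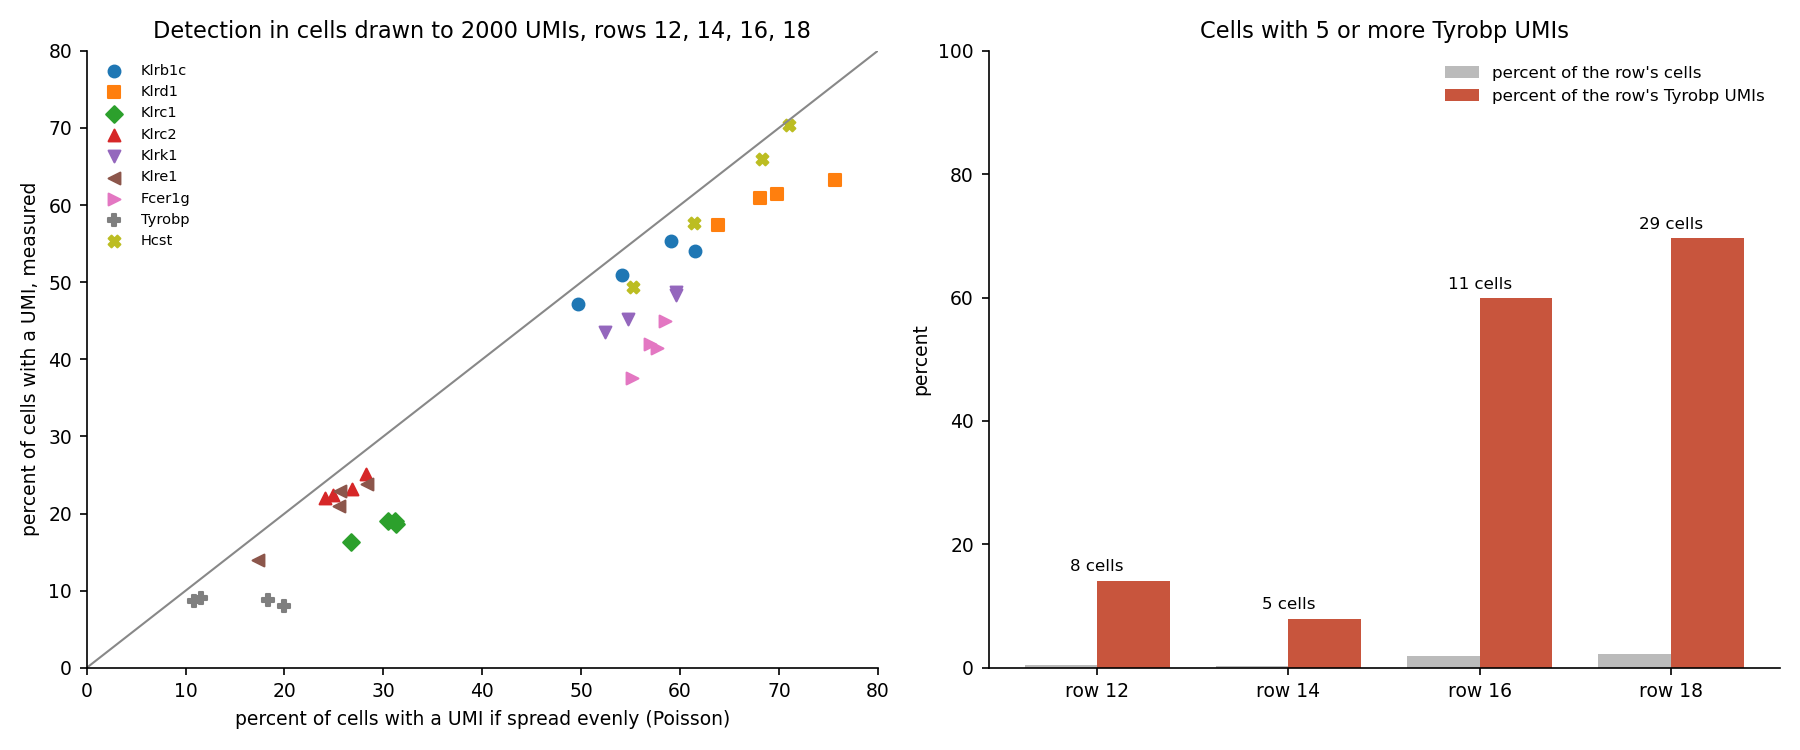
Left, measured percent of cells with a UMI against the percent that an even (Poisson) spread of the same UMIs would give, for 9 genes in rows 12, 14, 16 and 18; the line marks equal values, and all 9 genes lie below it in every row, Hcst in row 14 by the least (70.3% against 71.05%). Right, cells with 5 or more Tyrobp UMIs as a percent of the cells of the row (grey) and their percent of the Tyrobp UMIs of the row (red), with their number above: 11 and 29 cells hold 59.9% and 69.7% in rows 16 and 18.

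Detection of partner chains in the same even-row cells was compared at 2000 UMIs, as a description over 5206 cells. Klrc1 was detected in 18.8% (17.4 to 20.2) of cells with a Klrd1 UMI and 18.5% (16.9 to 20.3) of cells without, and the direction differed between rows. Klrc2 was detected in 24.7% and 20.3%, higher with Klrd1 in 4 of 4 rows. Klrc2 was found in 18.9% (16.5 to 21.5) of cells with a Klrc1 UMI and 23.9% (22.6 to 25.2) of cells without, lower with Klrc1 in 4 of 4 rows. Within the Ccl5-high cells these shares were 17.04% and 31.1%, and within the Izumo1r+ cells 20.0% and 14.2%. The closeness of the Klrc1 and Klrc2 sequences leaves their split by the counting uncertain.

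Fcer1g was detected more often in cells with a Tyrobp UMI than in cells without. The shares were 63.3% (58.7 to 67.7) of 455 cells and 40.4% (39.0 to 41.8) of 4751 cells, higher in 4 of 4 rows, and 60.4% and 40.2% once cells with a UMI of Ncr1, Eomes or Gzmc were left out. Hcst was found in 65.3% of cells with a Klrk1 UMI and 63.3% of cells without, higher in 4 of 4 rows, and Fcer1g in 41.9% of cells with a Klrb1c UMI and 42.9% of cells without, higher in 2 of 4 rows. The intervals overlapped for both pairs. Of the 6 receptors Klrb1c, Klrd1, Klrc1, Klrc2, Klrk1 and Klre1, most cells had UMIs of 1 (21.01%), 2 (31.8%) or 3 (25.5%), and 7.05% had none.

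Of 46 other genes of these pathways, 31 passed the minimum over the rows. In the even rows 19 of them were higher than in every odd row, a share to be read beside the 28.0% of all genes, among them Ptpn6 (SHP-1, a phosphatase recruited by ITIMs; 550 to 622 against 181 to 229 CPM) and Zap70 (297 to 310 against 59.1 to 123 CPM). Another 6 were higher in every odd row, where 34.3% of all genes were, including Syk (28.7 to 57.2 against 2.74 to 6.80 CPM) and Slamf6 (56.4 to 78.8 against 8.75 to 16.2 CPM). Without cells holding a UMI of Cd79a, Cst3, Lyz2 or Trdc, 9 were higher in every even row, Zap70 and Ptpn6 among them, and 8 in every odd row. Of the latter, Slamf6 and Clec2i had been so before, Fyn, Plcg1 and Ptprc had been higher in the even rows and turned direction, and Syk was in neither count. The shares of all genes were not counted for this choice of cells, which leaves out most cells of each row. Syk also lost its call without row 11. In every even row Syk, Slamf6 and Plcg2 (3.56 to 7.22 CPM) lay below the minimum, which they passed through the odd rows. Cd226, among the 19, was at 4.31 to 10.5 CPM in the odd rows and passed through the even rows. The direction of these genes is thus not independent of the minimum. H2-T23, which encodes the Qa-1 ligand of CD94 and Nkg2, was at 344 to 408 CPM in the even rows and 211 to 397 CPM in the odd rows. In the comparison of the classes, 29 of the 46 passed the minimum and none was 1.5-fold higher or lower in all 4 rows. The median log2 ratio was -0.13 against -0.03 over all genes. Ptpn6 was at 538 CPM in the Ccl5-high and 660 CPM in the Izumo1r+ cells, and Zap70 at 261 and 384 CPM.

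Over 12 sums of cells (4 even rows by the 2 classes and all other cells), the genes most like Klrd1 were Map4k1, Usp39 and Fgfr1op2 (Pearson r of 0.92, 0.88 and 0.88). Those most like Fcer1g were Nkg7, Klra5 and Cd7 (0.94, 0.94 and 0.94), and those most like Klrb1c were Adora2a, Sptlc1 and Rab37 (0.95, 0.94 and 0.94). These were the 3 highest of 6290 genes in each case, in order, the sums share rows and cell classes, and the values are descriptions of these sums.

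The start regions of the 4 genes that were at least 1.5-fold higher in Ccl5-high cells in every row are shown because these genes passed the same rule. The first listed window is printed for each. Windows of 250 bases before to 50 bases after the start (RefSeq, GRCm38.p6) were held for 8 of the 10 genes, and Klrd1 and Tyrobp had none here. Capitals mark TGTGGT (a Runx core), GTGTGA (a T-box core) and GGAAGT (an Ets core) on either strand, with no overlap between marked motifs in these 4 windows.
Klrc1 (chr6:129678924-129679223, minus strand): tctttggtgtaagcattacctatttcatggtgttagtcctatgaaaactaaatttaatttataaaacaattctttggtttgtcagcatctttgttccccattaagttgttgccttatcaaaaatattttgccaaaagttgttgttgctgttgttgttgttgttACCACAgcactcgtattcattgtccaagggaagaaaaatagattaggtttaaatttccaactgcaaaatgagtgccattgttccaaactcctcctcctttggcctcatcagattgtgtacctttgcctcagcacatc
Klrc2 (chr6:129660547-129660846, minus strand): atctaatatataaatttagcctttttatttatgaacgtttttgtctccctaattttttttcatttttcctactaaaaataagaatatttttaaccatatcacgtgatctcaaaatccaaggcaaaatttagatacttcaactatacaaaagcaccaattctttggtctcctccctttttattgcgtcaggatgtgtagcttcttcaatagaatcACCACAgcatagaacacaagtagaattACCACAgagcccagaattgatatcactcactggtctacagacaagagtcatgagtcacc
Klrk1 (chr6:129623815-129624114, minus strand): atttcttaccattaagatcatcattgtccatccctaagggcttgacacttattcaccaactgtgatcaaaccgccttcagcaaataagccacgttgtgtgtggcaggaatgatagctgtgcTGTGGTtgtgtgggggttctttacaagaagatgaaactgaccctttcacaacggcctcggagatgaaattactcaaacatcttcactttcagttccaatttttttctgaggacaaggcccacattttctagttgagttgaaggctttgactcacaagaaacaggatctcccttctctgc
Klre1 (chr6:129577963-129578262, plus strand): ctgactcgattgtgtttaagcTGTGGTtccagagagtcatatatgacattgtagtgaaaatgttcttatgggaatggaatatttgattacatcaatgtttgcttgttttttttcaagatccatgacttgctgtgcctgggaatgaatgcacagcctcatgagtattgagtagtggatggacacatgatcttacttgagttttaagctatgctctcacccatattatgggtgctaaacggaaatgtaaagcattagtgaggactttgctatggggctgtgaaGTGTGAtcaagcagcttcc
TGTGGT was in at least 1 window of 7 of the 8 genes (all but Hcst), and 16.8% of all 32851 single windows held it. Klre1 and Klrc2 had more than 1 window, and the Klre1 window not printed here held no TGTGGT. Counts by gene and shares of single windows are thus not the same measure. GTGTGA was in 1 of 8 (Klre1) against 14.5% of all windows, and GGAAGT in 3 of 8 (Klrb1a, Klrb1c and Hcst) against 23.8%. The windows of Klrb1a and Klrb1c are near copies, and those of Klrc1 and Klrc2 were 58.6% identical over 263 aligned bases. These are matches of letters and say nothing of binding.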

How the data were processed

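UMI counts for genes and hashtags in 1 pooled droplet library were deposited by the authors as raw values. They came from Cell Ranger 6.0.0 and a prebuilt mm10 mouse genome. Its release and any correction for free RNA are not given in the sources used here. Feature and barcode lists hold names, no measurements. With 1 library and unassigned rows, no test was run.

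Cells were filtered and assigned to hashtag rows as stated above, which also removed barcodes with mixed hashtags, and no doublet caller was run. Levels are summed UMIs scaled to 1000000 (CPM) with exact Poisson intervals, and detection shares have Clopper-Pearson intervals (95%, counting error only). Counts read from the 5′ end were not compared between genes. Log2 ratios used 10 CPM on both sides, genes needed 20 CPM, and cells were drawn to 2000 UMIs without replacement. Python 3.11.15, numpy 2.4.6, scipy 1.17.1 and pandas 2.3.3 were used. The call rules were run on simulated Poisson counts without extra spread between cells or rows. How the rules behave under the wider spread of these data was not tested.

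The 10 genes, the lists and the rules were chosen with earlier results of these data known. Named genes were the 10, pathway genes past a rule or needed as partners, and the 3 genes most like Klrd1, Fcer1g and Klrb1c. The class values of Ptpn6 and Zap70 were picked after they were seen. Klrh1 was matched through a RefSeq synonym. Signalling motifs were searched as codons in transcripts. Alternatives changed the cell and hashtag filters, totals, weights, class limits, minimum level, fold, depth and rows, and leaving out cells with a UMI of Ncr1, Eomes or Gzmc was added after the data were seen.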

Additional observations from a re-analysis of the deposited data

Results flagged for a closer look

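In 4 of 30 sets of 4 rows, 1 row stood far from the others by Dixon's ratio, the gap to the nearest row over the whole range. The limit was the 95% critical value for 4 samples, which about 1 of 20 sets of independent draws from 1 normal population would pass. The rows are sorted populations without an assigned stage or genotype, and the sets share rows. That rate therefore does not apply here, and the ratio is a flag only. Klrd1 in the odd rows had a ratio of 0.8386, with row 11 at 31.7 CPM and the others at 9.90 to 13.4 CPM; row 11 also had the highest sum of myeloid and dendritic markers (6131 CPM), whose part in this was not tested. The log2 class ratio of Klrd1 in the even rows had a ratio of 0.8949, with row 16 at 0.46 and the others at -0.13 to -0.07. Klrc1 in the even rows had a ratio of 0.8604, with row 16 at 146 CPM and the others at 183 to 188 CPM. Klre1 in the odd rows had a ratio of 0.8981, with row 13 at 2.19 CPM and the others at 2.04 to 2.05 CPM, values that rest on 11 to 32 UMIs per row and have overlapping intervals.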

How the results depend on the processing

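No paired analysis was possible because the rows carry no replicate number or group and no test was run. The count of genes higher in every even row was 8 or 9 under all alternatives. The count higher in every odd row, 1 (Tyrobp), was 0 with at least 90% of hashtag UMIs and without cells with a UMI of Cd79a, Cst3, Lyz2 or Trdc. The count of genes 1.5-fold higher in Ccl5-high cells, 4, was 2 with Izumo1r at least 1 (Klrc1, Klre1), 1 at 2-fold (Klrc1) and 2 over the 5 rows with 20 cells in both classes (Klrk1, Klre1), and ranged from 4 to 6 when 1 row was left out. Klrc2 lost its call in 5 of the 20 alternatives, Fcer1g passed in 4 and Tyrobp in 2. The log2 ratio over the summed cells was between -0.27 and 0.00 for Klrd1 and between -0.31 and 0.43 for Klrb1a. In the pathway list, the count higher in the even rows fell from 19 to 9 without cells with Cd79a, Cst3, Lyz2 or Trdc, where Fyn, Plcg1 and Ptprc turned to the odd rows and the count there was 8, with Slamf6 and Clec2i kept of the 6. That count was 2 (Clec2i, Grb2) at 50 CPM. Between the classes 1 listed gene was higher with no minimum (Cd244a) and in thinned cells (Klri2), and 1 was lower with no minimum (Slamf6), in thinned cells (Sh2d1a) and over all rows with 20 cells (Slamf6). Leaving out a row gave 0 to 1 in either direction, with 1 (Klri2 higher, Sh2d1a lower) without row 14. The shares of all genes called were not counted under the alternatives, and the causes were not tested. Klrb1a, with 91 UMIs in the even rows, was too shallow to compare between the classes.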
